A study of Homo sapiens with 9 samples.

Results

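In OCI-Ly1 cells, 23 genes that were almost unread under a control shRNA were read at 1 CPM (reads per 1000000 counted reads of the library) or more under each of 2 shRNAs against LSD1. They were chosen by these levels: a mean below 1 CPM in the control libraries, and a mean in each shRNA of at least 1 CPM and at least 3 times the sum of the control mean and 0.1 CPM. Of 26816 genes in the table, 14280 lay below 1 CPM in the control. The limits were met by 140 of these with the first shRNA, by 80 with the second and by 33 with both. From the 33, 7 with placeholder names beginning with LOC and 3 more (ERBB4, SCIMP and PDE4A) were left out by name, which leaves 23. All 23 had enough reads to be tested (at least 0.31 CPM in 3 libraries), 14 of them only with the reads of LSD1 shRNA libraries. The values that chose the genes are given here as a description, with no test of either shRNA against the control.

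OCI-Ly1 is an established human cell line from a diffuse large B-cell lymphoma. Polyadenylated RNA was sequenced from cells grown in IMDM with serum, in 9 libraries, 3 from each of 3 arms. Every arm carried a pLKO1 shRNA and was selected with puromycin: a scrambled control (shSCR), or one of 2 shRNAs against LSD1 that the table calls sh68 and sh72 after the ends of their clone names. The labels call the libraries biological triplicates and do not say whether the cells were transduced separately, so the p-values measure the spread between these libraries. The sample titles number the LSD1 shRNAs and no label ties a number to a clone name. The data come from 1 cell line.

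LSD1, the product of KDM1A, is a histone demethylase that takes methyl groups off histone H3 at marks of active promoters and enhancers. It has no sequence preference of its own and is brought to genes by DNA-binding repressors such as GFI1, GFI1B and SNAI1, in a complex with the scaffold CoREST (RCOR1) and the deacetylases HDAC1 and HDAC2. In germinal-centre B cells it is known as a partner of the repressor BCL6.

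The libraries held 29506767 to 35270849 counted reads. KDM1A itself fell from 119.3 to 24.5 CPM with sh68 and to 21.2 CPM with sh72, which left 20.6% and 17.7% of the control level (log2 fold change on the mean of both shRNAs -2.42 ± 0.044 SE, adjusted p = 4e-22, edgeR's quasi-likelihood test with Benjamini-Hochberg adjustment, used for every adjusted p here). The 7 B-cell markers MS4A1, CD79A, CD79B, PAX5, CD22, BCL6 and MME were all read, with a summed level of 5298.2 to 5436.3 CPM in shSCR, 5496.0 to 5598.1 with sh68 and 3805.3 to 3901.9 with sh72. PAX5 stood at 546.3, 610.3 and 272.8 CPM, above shSCR with sh68 and below it with sh72. Of the 7 markers 5 were lower on the mean of both shRNAs and 0 higher. The count of higher markers was 1 when libraries were scaled by size alone or with a minimum of 1 CPM in 3 libraries. It was also 1 without shSCR replicate 2 or without sh72 replicate 2. Of all genes of at least 5 CPM in shSCR, as these markers are, 24.1% were higher and 37.5% lower.

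The 250 bases before the start of transcription were read from RefSeq (GRCh38.p14) for 16 of the genes, which have 18 such windows. CD69, IL18, KCNK15, MRC2, TMEM71, TEX41 and RBMS3-AS3 had no window here and were not searched for motifs. The GC content of the 18 windows had a median of 56.0%, beside 56.4% over 8659 windows of other genes below 1 CPM in shSCR. It was 61.6% over all 21889 windows. The median number of CpG pairs was 9.5, beside 7.0 and 16.0. The windows of 6 genes are printed here, namely EPHA3, PCDH9, MYBPC1 and DTHD1, 4 of the genes with the highest ratios to the control, and MMP7 and PERP, which carry a match to the AP-1 element described after them. Each is written 5′ to 3′ on the gene's strand, and capitals mark the matches to the motifs named after them.
EPHA3: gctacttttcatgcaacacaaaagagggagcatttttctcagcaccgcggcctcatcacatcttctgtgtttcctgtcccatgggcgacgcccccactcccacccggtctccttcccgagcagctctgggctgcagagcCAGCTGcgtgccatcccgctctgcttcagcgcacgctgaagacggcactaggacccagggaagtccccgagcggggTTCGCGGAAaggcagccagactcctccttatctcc
PCDH9: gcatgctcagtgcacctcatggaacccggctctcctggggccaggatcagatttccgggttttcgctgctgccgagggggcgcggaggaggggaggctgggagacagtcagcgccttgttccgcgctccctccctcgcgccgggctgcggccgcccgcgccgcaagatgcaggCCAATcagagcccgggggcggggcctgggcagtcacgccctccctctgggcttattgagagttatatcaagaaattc
MYBPC1: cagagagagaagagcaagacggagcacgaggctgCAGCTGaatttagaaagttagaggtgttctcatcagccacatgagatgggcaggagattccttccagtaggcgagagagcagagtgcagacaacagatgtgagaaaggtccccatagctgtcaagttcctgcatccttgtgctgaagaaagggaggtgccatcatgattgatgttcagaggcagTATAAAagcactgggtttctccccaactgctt
DTHD1: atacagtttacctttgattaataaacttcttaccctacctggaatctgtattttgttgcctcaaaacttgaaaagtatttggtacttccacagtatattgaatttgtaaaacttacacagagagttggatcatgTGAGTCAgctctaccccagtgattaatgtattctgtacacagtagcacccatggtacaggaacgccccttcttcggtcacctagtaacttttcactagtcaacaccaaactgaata
MMP7: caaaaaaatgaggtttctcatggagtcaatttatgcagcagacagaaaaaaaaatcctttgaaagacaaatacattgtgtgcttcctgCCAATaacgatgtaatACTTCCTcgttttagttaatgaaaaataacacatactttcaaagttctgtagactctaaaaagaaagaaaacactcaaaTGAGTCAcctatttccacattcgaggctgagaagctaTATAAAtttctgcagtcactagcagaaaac
PERP: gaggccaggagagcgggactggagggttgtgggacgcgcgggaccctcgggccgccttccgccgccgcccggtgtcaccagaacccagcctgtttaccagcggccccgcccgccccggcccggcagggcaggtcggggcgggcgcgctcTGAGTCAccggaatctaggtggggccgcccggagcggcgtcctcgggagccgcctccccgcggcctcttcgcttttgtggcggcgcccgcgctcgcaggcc
These windows lie at chr3:89107371-89107620 (plus strand), chr13:67230337-67230586 (minus), chr12:101594721-101594970 (plus), chr4:36281366-36281615 (plus), chr11:102530748-102530997 (minus) and chr6:138107420-138107669 (minus).

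Motifs were searched on both strands. The AP-1 element TGANTCA, bound by FOS and JUN proteins, was matched in 5 of 18 windows (27.8%), those of CARD6, CCDC54, DTHD1, MMP7 and PERP. The share was 7.43% in windows of other genes below 1 CPM in shSCR and 5.52% in all windows. In DTHD1 the match runs from base -116 to -110 before the start, in PERP from -101 to -95 and in MMP7 from -67 to -61. The TATA box TATAAA, where the basal transcription machinery can bind, was matched in 4 windows (22.2%, beside 11.6% and 8.04%): GPR22, MMP7, MYBPC1 and WDR86. In MYBPC1 it lies from -32 to -27 and in MMP7 from -30 to -25. The core AAATCA of the GFI1 site was matched in 3 windows (16.7%, beside 12.9% and 9.48%), B3GALT2, CARD6 and CD109. The ETS element AGGAAGT was matched in 3 (16.7%, beside 7.32% and 7.19%), B3GALT2, MMP7 and RNF125, and the E-box CAGCTG in 3 (16.7%, beside 15.2% and 13.9%), EPHA3, MYBPC1 and RNF125. TTCNNNGAA, the pair of half-sites shared by BCL6 and STAT proteins, was matched only in EPHA3 (5.56%, beside 6.33% and 5.84%), from -35 to -27. The octamer ATTTGCAT was matched in a window of PCYT1B (5.56%, beside 1.71% and 1.49%). CCAAT was matched in 5 windows (27.8%, beside 30.5% and 32.1%). The interferon element core GAAANNGAA was in 0 of 18 (7.02% and 6.25% elsewhere). In GPR22 2 TATA matches overlap each other. These are matches of letters in few windows, with no test.

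The genes are spread over 16 chromosomes. The closest pair on a chromosome, MMP7 and IL18, lies 9.61 Mb apart, so that no window of 100 kb holds more than 1 of them. Protein-coding genes make up 21 of the 23 (91.3%), beside 46.1% of the positioned genes below 1 CPM in shSCR, and the rule leaves out many noncoding names. The median span of a gene was 41.8 kb, from 1.2 kb in CCDC54 to 927.5 kb in PCDH9. It was 13.8 kb over the positioned genes below 1 CPM in shSCR. That set has a smaller share of protein-coding genes, so the spans are not compared like for like. By role, 9 encode receptors and other membrane proteins, 4 proteins of innate immunity or with a death-fold domain, 3 enzymes and 5 structural or other proteins, and 2 are long noncoding RNAs. By GENCODE 29, 13 of the 23 share no exonic bases with another gene and 3 share over 10%.

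Over the 23 genes, the mean level in shSCR ran from 0.032 to 0.999 CPM with a median of 0.36 (CPM are not corrected for gene length). It ran from 1.01 to 7.67 CPM with sh68 (median 1.78) and from 1.01 to 6.02 CPM with sh72 (median 1.75). The ratio of means over shSCR ran from 3.35 to 31.5 with sh68 (median 5.98) and from 3.44 to 53.8 with sh72 (median 5.68), and both ratios of a gene rest on the same control libraries. In all 23 genes the 6 LSD1 shRNA libraries lay above the 3 control libraries, a separation that the choice of genes nearly fixes. Of all 15725 genes tested, 24.9% were called higher on the mean of both shRNAs, which is a different measure. The share of all genes with the same separation of libraries was not counted. No gene had a control library at 0 reads, so the control count of each is low and not 0. EPHA3 had 1 read in each control library, too few to tell a low level from none. The levels with LSD1 shRNA stayed low too: 12 of the 23 were below 2 CPM with both shRNAs, and 3 reached 5 CPM in an arm. In RNA from a whole culture, a few cells with much of an RNA and many cells with a little of it cannot be told apart.

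**Figure D1:**
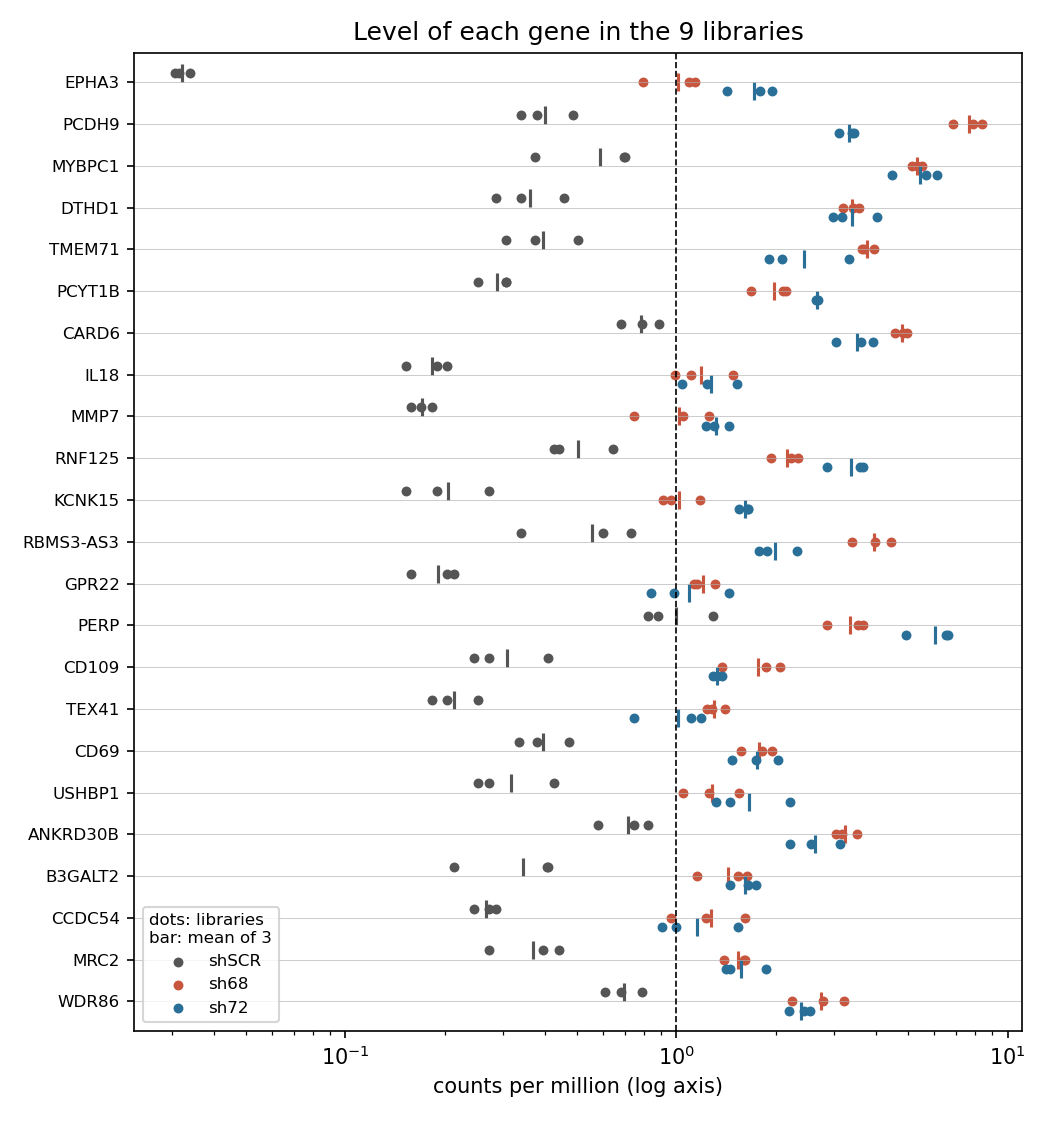
Level of each of the 23 genes in CPM (log axis) in the 3 shSCR, 3 sh68 and 3 sh72 libraries, with dots for libraries, short bars for the mean of 3, and a dashed line at 1 CPM. In every gene the 6 LSD1 shRNA dots lie to the right of the 3 control dots, which the choice of genes nearly fixes. EPHA3 has the lowest control level, 0.032 CPM.

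Among the membrane proteins, EPHA3, a receptor tyrosine kinase that binds ephrin-A ligands on neighbouring cells, had the highest ratio to the control (chr3:89107621-89482134, 17 exons). It was read once in each shSCR library (0.0305, 0.0339 and 0.0315 CPM), at 1.09, 0.794 and 1.14 CPM with sh68 and at 1.79, 1.42 and 1.94 CPM with sh72. Both LSD1 arms were high and did not overlap with each other or with the control. With 3 control reads in all, the ratio from summed reads was 31.5 with sh68 (95% exact interval 10.5 to 155.2) and 53.9 with sh72 (18.1 to 264.0), intervals that cover counting error only.

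PCDH9 encodes a protocadherin, a cell adhesion molecule best known from neurons, and is the longest of the genes (chr13:66302834-67230336). It stood at 0.487, 0.339 and 0.378 CPM in shSCR, 8.35, 6.83 and 7.84 with sh68 and 3.44, 3.10 and 3.38 with sh72. The 3 arms were fully apart, with sh68 highest, and the ratio to the control was 19.1 with sh68 and 8.24 with sh72. TMEM71, a transmembrane protein of little known function, had 0.305, 0.373 and 0.504 CPM in shSCR, 3.63, 3.94 and 3.68 with sh68 and 2.08, 1.90 and 3.32 with sh72. Its sh72 libraries were spread, with replicate 3 near the sh68 level, and the ratios were 9.52 and 6.18.

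KCNK15 belongs to the tandem-pore potassium channels, which set the resting potential (chr20:44745865-44752313). It was at 0.152, 0.271 and 0.189 CPM in shSCR, 1.18, 0.964 and 0.913 with sh68 and 1.65, 1.55 and 1.64 with sh72. All sh72 libraries lay above all sh68 libraries. Of its exonic bases, 21.7% are shared with RIMS4 and KCNK15-AS1 on the opposite strand, and the strand setting of the counting is not given in the sources used here, so its reads are uncertain. RIMS4 stood at 0.91 CPM in shSCR, 1.47 with sh68 and 1.13 with sh72, and KCNK15-AS1 at 0.463, 0.488 and 0.384.

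PERP, a membrane protein of desmosomes and a target of p53 and p63, was the gene nearest to the upper control limit (chr6:138088505-138107419). Its libraries held 0.822, 0.881 and 1.29 CPM in shSCR, 2.85, 3.66 and 3.54 with sh68 and 4.94, 6.52 and 6.60 with sh72. The third control library was above 1 CPM, and sh72 was above sh68 throughout. The ratio was 3.35 with sh68 and 6.03 with sh72.

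The other 4 membrane proteins had ratios of 4.15 to 6.26 with sh68 and of 4.26 to 5.68 with sh72. CD109, a GPI-anchored protein of the alpha-2-macroglobulin family, had means of 0.308, 1.76 and 1.33 CPM in shSCR, sh68 and sh72. GPR22, an orphan G protein-coupled receptor, had 0.191, 1.20 and 1.09 CPM, and lies whole within COG5 on the opposite strand, without shared exonic bases. CD69, a C-type lectin that lymphocytes show early in activation, had 0.396, 1.78 and 1.75 CPM. MRC2, an endocytic receptor for collagen, had 0.369, 1.53 and 1.57 CPM, and 12.6% of its exonic bases are shared with annotated transcripts on the opposite strand. In each of the 4, the sh68 and sh72 libraries overlapped.

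Of the immune and death-fold proteins, DTHD1, which carries a death domain, had nearly equal levels with both shRNAs (chr4:36281616-36347511, 13 exons). It was at 0.457, 0.339 and 0.284 CPM in shSCR, 3.57, 3.18 and 3.42 with sh68 and 2.98, 3.16 and 4.02 with sh72. The ratio was 9.42 with sh68 and 9.41 with sh72, and the LSD1 arms overlapped. CARD6, a protein with a caspase recruitment domain, was at 0.883, 0.678 and 0.788 CPM in shSCR, 4.84, 4.96 and 4.56 with sh68 and 3.04, 3.61 and 3.92 with sh72 (chr5:40841367-40855354). Every sh68 library was above every sh72 library.

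IL18, a cytokine of the interleukin 1 family that caspase-1 cuts to its active form, was at 0.152, 0.203 and 0.189 CPM in shSCR, 0.993, 1.11 and 1.48 with sh68 and 1.04, 1.52 and 1.24 with sh72 (chr11:112143260-112164094). The LSD1 arms overlapped, with ratios of 6.57 and 6.97. RNF125, a ubiquitin ligase that acts on the RNA sensor RIG-I, was at 0.426, 0.644 and 0.441 CPM in shSCR, 2.33, 1.93 and 2.22 with sh68 and 3.58, 3.65 and 2.85 with sh72 (chr18:32018825-32090806). Here sh72 was above sh68 in every library. RNF125 shares 8.3% of its exonic bases with an annotated transcript on the same strand.

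Of the enzymes, PCYT1B makes CDP-choline for phosphatidylcholine synthesis and is the less widely expressed paralog of PCYT1A (chrX:24558087-24672887). It was at 0.305, 0.305 and 0.252 CPM in shSCR, 2.14, 2.10 and 1.68 with sh68 and 2.63, 2.65 and 2.68 with sh72. The sh72 libraries were tightly grouped above the sh68 libraries. MMP7, or matrilysin, is a secreted protease of the extracellular matrix (chr11:102520508-102530747). It was at 0.183, 0.169 and 0.158 CPM in shSCR, 0.745, 1.05 and 1.25 with sh68 and 1.30, 1.23 and 1.44 with sh72, and the sh68 and sh72 libraries overlapped. B3GALT2, a galactosyltransferase of glycan synthesis, had means of 0.343, 1.43 and 1.61 CPM and lies within CDC73 on the opposite strand, with 5.0% of its exonic bases shared.

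Among the structural and other proteins, MYBPC1 is the myosin-binding protein C of slow skeletal muscle (chr12:101594971-101695841, 37 exons). It was at 0.700, 0.373 and 0.693 CPM in shSCR, 5.31, 5.16 and 5.53 with sh68 and 4.48, 5.68 and 6.13 with sh72. The LSD1 arms overlapped, with ratios of 9.06 and 9.22. WDR86, a protein of WD repeats, was the gene nearest inside the 3-fold limit, at 0.609, 0.678 and 0.788 CPM in shSCR, 3.20, 2.24 and 2.77 with sh68 and 2.54, 2.42 and 2.18 with sh72. Of its exonic bases 11.9% are shared with NUB1 and WDR86-AS1 on the opposite strand. USHBP1, a binding partner of the Usher syndrome protein harmonin, had means of 0.317, 1.28 and 1.66 CPM, with 8.2% of its exonic bases shared, in part with ANKLE1. ANKRD30B, an ankyrin-repeat protein with closely related copies elsewhere in the genome, had 0.715, 3.23 and 2.62 CPM, and its reads are uncertain for that reason. CCDC54, a coiled-coil protein encoded by 1 exon, had 0.266, 1.27 and 1.15 CPM.

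The 2 noncoding RNAs differed in kind. RBMS3-AS3 (chr3:29264194-29280939) lies whole within RBMS3 on the opposite strand in GENCODE 29, with no shared exonic bases, and 0.1 kb from it in RefSeq. It was at 0.731, 0.339 and 0.599 CPM in shSCR, 3.97, 3.40 and 4.45 with sh68 and 1.88, 1.77 and 2.31 with sh72, and all 3 arms were apart. TEX41 is a long intergenic RNA of 52 merged exons (chr2:144667967-145076729). It was at 0.183, 0.203 and 0.252 CPM in shSCR, 1.24, 1.28 and 1.40 with sh68 and 1.19, 0.742 and 1.11 with sh72. Its sh72 libraries all lay below the sh68 libraries, replicate 2 farthest. Per kilobase of exon, the level with sh68 was highest in RBMS3-AS3 (5.01 CPM per kb) and lowest in TEX41 (0.0867 CPM per kb), around a median of 0.438.

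The limits run through a continuous range of values. Besides the 33 genes that met them with both shRNAs, 107 met them with sh68 and not sh72, and 47 with sh72 and not sh68. Nearest inside the 3-fold limit, by the smaller of the 2 ratios over the control mean plus 0.1 CPM, were WDR86 (3.01), RBMS3-AS3 (3.03) and PERP (3.05). Nearest outside were ARL14 (2.98), BATF3 (2.89) and RBM47 (2.86). At the 1 CPM limit, the lower LSD1 arm was 1.01 CPM in EPHA3, 1.01 in TEX41 and 1.02 in MMP7. Just outside, it was 0.955 in KCTD19, 0.921 in SCNN1B and 0.815 in SYT13. The opposite pattern, below 1 CPM with both shRNAs and past the same limits in shSCR, was met by 4 genes, 2 of which have a symbol that is no placeholder. ALPL, alkaline phosphatase, went from 2.27 CPM in shSCR to 0.352 and 0.179, and TNNI2, a troponin of fast muscle, from 2.91 to 0.146 and 0.313.

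**Figure D2:**
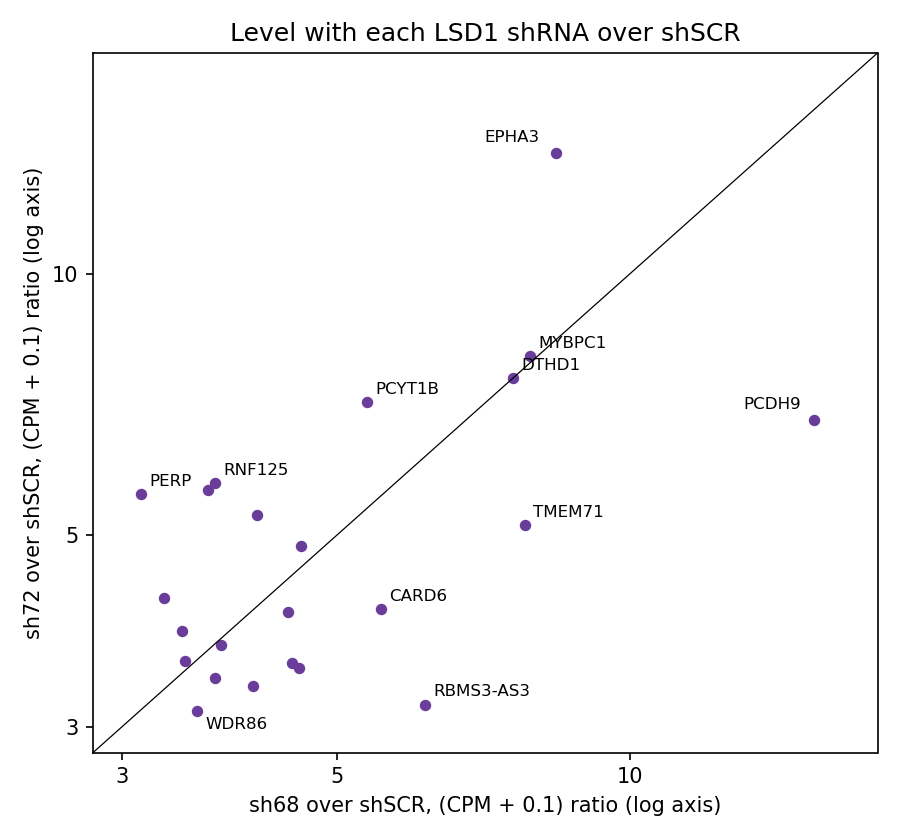
Ratio of the mean level with sh68 (x axis) and with sh72 (y axis) to shSCR for the 23 genes, each mean with 0.1 CPM added, both axes logarithmic, with the line of equal ratios. MYBPC1 and DTHD1 lie on or near the line, EPHA3 and PERP above it, and PCDH9 and RBMS3-AS3 below it.

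The difference between the 2 LSD1 shRNAs was tested. The rule set no limit on it but asked for a high level with each shRNA, which left out genes that passed with only 1 of them, so the counts are conditioned on the choice. Of the 23, 5 were higher with sh72, 4 were lower and 14 did not pass. Of all 15725 genes tested, 27.2% were higher with sh72 and 29.0% lower, and for that reason nothing is read from the members' counts beside these shares. The median log2 fold change of sh72 minus sh68 was -0.02 over the 23 genes and -0.01 over all genes. In 16 of the 23 the means with the 2 shRNAs were within 1.5-fold of each other, and 11 had the higher mean with sh72.

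PCDH9 differed most: its level with sh72 was 0.431 times that with sh68 (log2 fold change -1.22 ± 0.12 SE, adjusted p = 3.42e-09). RBMS3-AS3 was also lower with sh72 (-1.0 ± 0.16, adjusted p = 1.41e-05). TMEM71 (-0.64 ± 0.17) and CARD6 (-0.46 ± 0.12) were the other 2 that were lower, with adjusted p = 0.00212 and 0.00285. PERP was the gene with the largest difference towards sh72, 1.8 times the sh68 level (0.82 ± 0.14, adjusted p = 1.95e-05). EPHA3 (0.76 ± 0.21), KCNK15 (0.66 ± 0.20) and RNF125 (0.63 ± 0.16) were higher with adjusted p of 0.00321, 0.00791 and 0.00127. PCYT1B was higher by 0.42 ± 0.16 (adjusted p = 0.0264), a call that was lost with DESeq2 (adjusted p = 0.087), without sh68 replicate 3 (0.135) and without sh72 replicate 1 (0.0586). The 9 genes come from the membrane proteins (EPHA3, PCDH9, KCNK15, PERP and TMEM71), the immune and death-fold proteins (CARD6 and RNF125), the enzymes (PCYT1B) and the noncoding RNAs (RBMS3-AS3).

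A difference that did not pass is not a sign of equal levels. For MYBPC1 the 95% interval of the log2 fold change was -0.25 to 0.26 and for DTHD1 -0.31 to 0.27. It was wider for IL18 (-0.39 to 0.51), MMP7 (-0.10 to 0.81) and CCDC54 (-0.62 to 0.36), which had fewer reads. CD109 (-0.42, interval -0.83 to -0.01, adjusted p = 0.0767) passed without sh68 replicate 1 (adjusted p = 0.0249). ANKRD30B (-0.32, interval -0.63 to -0.01, adjusted p = 0.072) passed without sh72 replicate 3 (adjusted p = 0.0257).

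**Figure D3:**
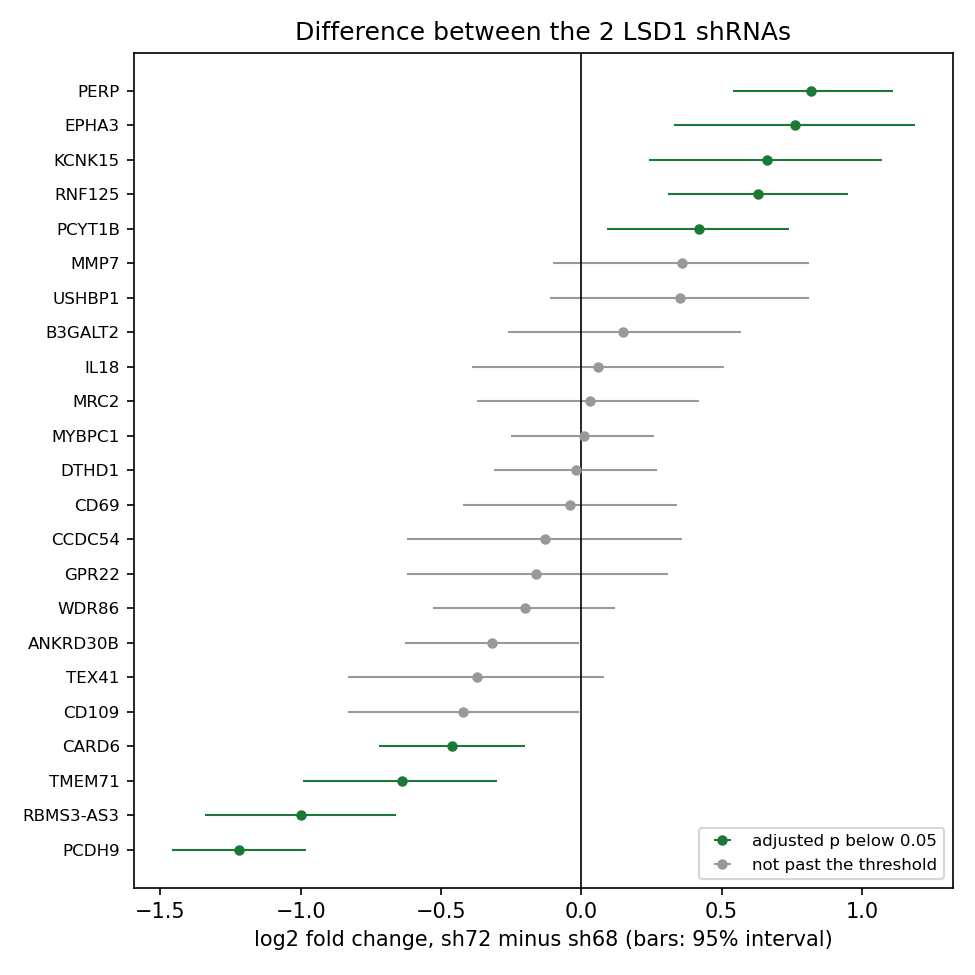
Log2 fold change of sh72 minus sh68 for each of the 23 genes with its 95% interval, from edgeR's quasi-likelihood fit of all 9 libraries; green marks adjusted p below 0.05. PERP is at the top with 0.82, PCDH9 at the bottom with -1.22, and 14 genes in grey did not pass.

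Genes that lie near the 23 were not used to choose them, and their levels were tested on the mean of both shRNAs against shSCR. Within 100 kb lay 82 genes of the table, of which 56 were tested. Of these 31 were higher (55.4%), 8 lower (14.3%) and 17 did not pass. Of all genes tested, 24.9% were higher and 27.5% lower. The median log2 fold change of the neighbours was 0.15, beside -0.02 over all genes, so most of these differences were small: 6 neighbours were at least 2-fold higher and 0 at least 2-fold lower. Of those 6, 2 met the limits of the rule themselves and were left out by name, so that the rule fixed their rise, and 4 remain without them. Only 1 of the 6, PTGER4, was at the filter's minimum of 0.31 CPM in every shSCR library. Among the 50 neighbours at that minimum in every shSCR library, 26 were higher (52.0%) and 8 lower (16.0%).

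A call on the mean of both shRNAs can rest on 1 of them. Of the 31 higher neighbours, 26 had both means above shSCR (83.9%, beside 89.8% of all genes called higher), and ANKLE1, CLEC2D, GNPTAB, RHEB and TIMM8B lay below it with 1 shRNA. Of the 8 lower, 6 had both means below (75.0%, beside 79.2%), and MYO9B and TG did not. RHEB, for one, stood at 45.0 CPM in shSCR, 43.6 with sh68 and 57.8 with sh72. RHEB, GNPTAB, TIMM8B, ANKLE1 and MYO9B were named after their values were seen. The count of lower neighbours was 5 when libraries were scaled by size alone, and also without shSCR replicate 1, without shSCR replicate 2 or without sh72 replicate 2.

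The higher neighbours were spread over most of the genes. Of the 23 genes, 21 had a tested neighbour. Of these, 17 had a higher neighbour and 6 a lower one, and 15 had more higher than lower neighbours. The like counts around other genes were not made. Among the 48 neighbours that do not overlap one of the 23 by RefSeq positions, 26 were higher and 7 lower. RBMS3 and ANKLE1, which do overlap one of the 23 in GENCODE 29, are among those 26. Without 2 neighbours that met the limits of the rule themselves, 29 of 54 were higher and 8 lower. USHBP1 lies in a gene-dense stretch, and without its neighbours 27 of 45 were higher and 6 lower. Among the 42 neighbours of at least 5 CPM in shSCR, 57.1% were higher and 16.7% lower, while of all 9933 such genes 24.1% were higher and 37.5% lower. Farther out, between 100 and 500 kb, 26 of 84 tested genes were higher (31.0%) and 25 lower (29.8%). Between 500 and 1000 kb the counts were 43 (38.1%) and 27 (23.9%) of 113. Neighbours share the genes they lie beside, and all are read from the same libraries, so they are not independent, and no test of the share was made.

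**Figure D4:**
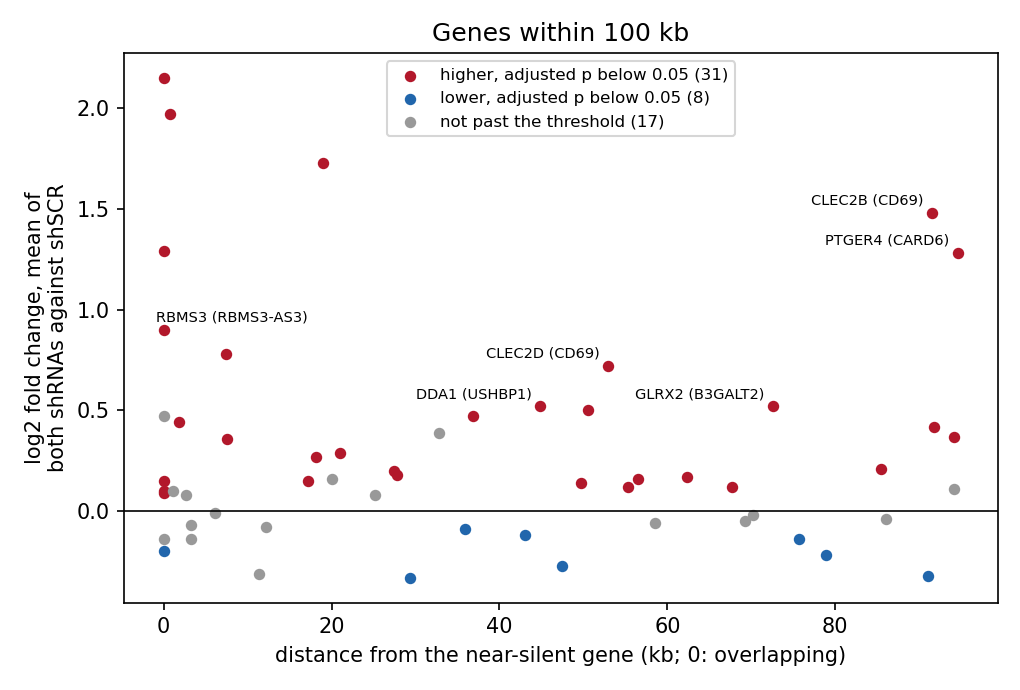
Log2 fold change of the averaged LSD1 shRNAs over shSCR for the 56 tested genes within 100 kb of the 23 genes, by distance in kb, with the gene beside which each lies in brackets for 6 of them. Red dots (31) were higher and blue dots (8) lower at adjusted p below 0.05, and 17 grey dots did not pass.

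PTGER4, a receptor for prostaglandin E2 that lies 94.6 kb from CARD6, went from 1.31 to 3.30 CPM with sh68 and to 3.23 CPM with sh72 (log2 fold change 1.28 ± 0.15 SE, adjusted p = 1.49e-07). RBMS3, the RNA-binding protein gene opposite RBMS3-AS3, went from 18.6 to 36.8 and 34.2 CPM (0.90 ± 0.06, adjusted p = 1.11e-11). RBMS3 was thus near equal with both shRNAs where RBMS3-AS3 was lower with sh72, and since the strand setting is not given, reads of introns of RBMS3 within RBMS3-AS3 could not be set apart. Beside CD69, CLEC2B and CLEC2D, genes of the same C-type lectin cluster, were higher on the mean. CLEC2B went from 0.196 to 0.454 and 0.672 CPM (1.48 ± 0.38, adjusted p = 0.00195). It was under the filter's minimum of 0.31 CPM on the shSCR mean and was tested only with the reads of LSD1 shRNA libraries. The filter favours calls upward in such a gene. CLEC2D went from 30.2 to 101.4 CPM with sh68 and stood at 25.5 with sh72, so the mean of both (0.72) stands for sh68 alone, while CD69 had like levels with both shRNAs.

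DTHD1 has ARAP2 at 36.8 kb, a GTPase regulator that went from 153.4 to 209.0 and 225.4 CPM (0.47 ± 0.039, adjusted p = 4.9e-10). Both tested neighbours of PCYT1B, the pyruvate dehydrogenase kinase PDK3 (0.36) and the DNA polymerase subunit POLA1 (0.29), were higher. CHPT1, 1.8 kb from MYBPC1, makes phosphatidylcholine and went from 78.8 to 126.3 and 95.3 CPM. ARAP2, PDK3 and POLA1 were chosen after their values were seen, as were RBMS3, CLEC2D and GLRX2 (0.52, beside B3GALT2). Placeholder genes were among the highest: LOC105370247 within PCDH9 (2.15), LOC105372007 and LOC105372005 beside ANKRD30B (1.97 and 1.73) and LOC100505498 within TEX41 (1.29). LOC105370247 and LOC105372007 met the limits of the rule themselves and were left out by name, so the rule fixed their rise. Each of these placeholder genes had a shSCR library under the filter's minimum and was tested only with the reads of LSD1 shRNA libraries.

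Of the lower neighbours, USE1 beside USHBP1 fell by 0.33 on the log2 scale, SDHD and DLAT beside IL18 fell by 0.27 and 0.22, NUB1 beside WDR86 by 0.20 and TRAPPC8 beside RNF125 by 0.14. TG, beside TMEM71, went from 3.72 to 5.67 CPM with sh68 and to 1.63 CPM with sh72 (-0.32, adjusted p = 0.037), and its call was lost with library size alone, DESeq2 and limma-voom. It was also lost without shSCR replicate 1 (adjusted p = 0.173) or 2, sh68 replicate 1 or sh72 replicate 1 or 2. RNF125 is the 1 gene with more lower than higher neighbours.

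The kin of the 23 genes and other groups were read from lists, on the mean of both shRNAs. Of all genes tested, 24.9% were higher and 27.5% lower on that mean, the shares beside which each list's counts stand. No test of a list was made. Of the 122 list genes tested, 26 had a shSCR library under the filter's minimum and were tested only with the reads of LSD1 shRNA libraries. Of these, 12 were higher (CD3D, COL1A1, CPAMD8, GRIN1, ITGA2B, KCNK9, KLRD1, LYZ, NOD2, PCDH11X, SPO11 and TEX14) and 0 lower, beside 519 higher of 1563 such genes in all. The filter favours calls upward in such genes, so they add no support to a list's count of higher genes. 

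Of the other 2 Eph receptors with enough reads, EPHA10 was higher (0.52 ± 0.18, adjusted p = 0.0194, lost without shSCR replicate 2 or 3 at 0.06 and 0.0809) and EPHB4 did not pass, and 7 of 10 Eph receptors in the table stayed below 1 CPM in every arm. Of 7 tested ephrins, their ligands, EFNA5 rose (0.66 ± 0.15) and EFNA3 (-0.73 ± 0.096) and EFNA4 (-0.44 ± 0.078) fell; without shSCR replicate 2 or sh68 replicate 2, and with library size alone, 2 were higher. Of 4 other tested protocadherins and cadherins, PCDH11X went from 0.0515 to 0.136 CPM with sh68 and to 0.613 CPM with sh72 (2.33 ± 0.56) and was tested through its sh72 libraries, while CDH23 (-1.09) and PCDH12 (-0.79) were lower. The call of CDH23 was lost without shSCR replicate 1 (adjusted p = 0.0699), and that of PCDH12 with DESeq2 and without shSCR replicate 1 (0.098), shSCR replicate 3 (0.123), sh68 replicate 3 (0.0593) or sh72 replicate 2 (0.0577). PCDH9 was the only one of 15 genes of that list in the table that reached 1 CPM in any arm.

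Tandem-pore potassium channels beside KCNK15 gave 2 higher of 5 tested, KCNK9 (1.54 ± 0.26) and KCNK13 (0.95 ± 0.22), and 0 lower. KCNK9 stood at 0.39 CPM in shSCR, 1.66 with sh68 and 0.851 with sh72, and KCNK13 at 0.574, 1.66 and 0.779 CPM. Both had the higher mean with sh68, while KCNK15 was higher with sh72. Of the alpha-2-macroglobulin family beside CD109, 3 of 4 tested were higher, among them A2ML1 (0.92 ± 0.19) and the complement factor C5 (0.27 ± 0.067). Both were near the control with sh72: A2ML1 stood at 1.12 CPM in shSCR, 3.77 with sh68 and 1.26 with sh72, and C5 at 13.2, 19.4 and 13.7 CPM. The third, CPAMD8 (1.18, adjusted p = 0.02), lost its call with DESeq2 and without shSCR replicate 1, shSCR replicate 3 or sh72 replicate 3, with adjusted p up to 0.0841. Of 4 tested matrix metalloproteinases beside MMP7, 0 passed in either direction. Of the partners and regulators of PERP, TP63, which encodes p63, was higher on the mean (0.54 ± 0.038) but stood at 95.4 CPM in shSCR, 191.2 with sh68 and 105.3 with sh72, while PERP was higher with sh72. The junction protein plakoglobin (JUP) was higher on the mean as well, at 89.6, 92.8 and 113.8 CPM (0.17 ± 0.047, adjusted p = 0.00437, and 0.0544 without shSCR replicate 3).

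Of the interleukin 18 pathway, 1 of 8 tested genes rose and 7 did not pass (1 of these was lower without shSCR replicate 3 or sh68 replicate 1). A gene that did not pass on the mean can lie on opposite sides of shSCR with the 2 shRNAs. IL1B, named after its values were seen, stood at 1.61 CPM in shSCR, 4.81 with sh68 and 0.45 with sh72. AIM2, a sensor of DNA that activates caspase-1, went from 13.3 CPM to 26.1 and 20.2 (0.75 ± 0.064, adjusted p = 7.97e-10). The binding protein IL18BP, caspase-1 (CASP1) and the receptor subunit IL18RAP did not pass. Among CARD proteins beside CARD6, 4 of 9 tested were higher and 1 lower. NOD2, a sensor of bacterial cell wall, went from 0.181 to 1.67 CPM with sh68 and to 0.31 CPM with sh72 (1.93 ± 0.35), and CARD10 (0.34 ± 0.094) and CARD8 (0.18 ± 0.041) were higher with smaller differences. NOD1 was the lower one on the mean, at 9.17, 10.1 and 6.44 CPM (-0.22, adjusted p = 0.0238), a call lost without shSCR replicate 1 (0.138), shSCR replicate 2, sh68 replicate 2 or sh72 replicate 1, which leaves 0 lower. Of the RNF125 kin, RNF166 fell (-0.51 ± 0.054) and RNF114 and RNF138 did not pass.

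In phosphatidylcholine synthesis beside PCYT1B, CHPT1 rose (0.44 ± 0.035) and PEMT (-0.92 ± 0.14), CEPT1 (-0.17 ± 0.035) and PCYT1A (-0.15 ± 0.048) were lower, of 6 tested. The call of PCYT1A was lost without shSCR replicate 2 (adjusted p = 0.141) or sh72 replicate 2 (0.0597). PCYT1A stood at 42.5 CPM in shSCR, 37.3 with sh68 and 41.1 with sh72. Of 2 tested galactosyltransferases beside B3GALT2, B3GALT6 rose (0.30 ± 0.073) and C1GALT1 fell (-0.32 ± 0.038). Of the mannose receptor family beside MRC2, LY75 was the 1 gene tested (-0.20, adjusted p = 0.0289, 0.164 without shSCR replicate 3, and also lost without shSCR replicate 1 or 2, sh68 replicate 1 or 2 or sh72 replicate 2, with library size alone and with DESeq2).

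Of 13 tested sarcomere genes beside MYBPC1, 2 were higher and 4 lower. MYBPC2 did not pass on the mean, but stood at 5.38 CPM in shSCR, 11.4 with sh68 and 2.37 with sh72. It was named after its values were seen. TTN, titin, went from 404.0 CPM to 761.6 and 899.4 (1.00 ± 0.048), and TNNT1 from 1.62 to 5.69 and 1.70. TNNI2 fell by 3.77 on the log2 scale, TNNI1 went from 1.15 CPM to 0.382 and 0.846 (adjusted p = 0.00585, and 0.0564 without shSCR replicate 1), and MYH3 fell by 0.33. TPM2 stood at 52.7 CPM in shSCR, 54.7 with sh68 and 32.8 with sh72, so its lower mean (-0.35) stands for sh72 alone. Of 4 tested germline genes 2 were higher, SPO11 (0.237 to 1.48 and 0.179 CPM) and TEX14 (0.138 to 0.381 and 0.482), and their calls were lost without shSCR replicate 1 (adjusted p = 0.0861) and shSCR replicate 3 (0.053) in turn. Of 6 tested neuronal genes, GRIN1 (2.20 ± 0.34) and NLGN1 (0.85 ± 0.23) were higher, and TUBB3 (-0.72 ± 0.075) and SYP (-0.53 ± 0.21) lower. SYP, at 1.29, 1.24 and 0.677 CPM, had adjusted p = 0.0386. Its call was lost without shSCR replicate 2 or 3 (up to 0.281), sh68 replicate 2 or 3 or sh72 replicate 1 or 2, with library size alone, DESeq2 and limma-voom. Of the 23 listed neuronal genes that were read, 18 were below 1 CPM in every arm.

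In the LSD1 and CoREST list, 3 of 13 tested genes were higher, among them RCOR1 (0.31 ± 0.039). The 8 lower ones include KDM1A, the target of both shRNAs, ZMYM3 (-0.28 ± 0.033) and RCOR2 (-0.38 ± 0.091). Apart from KDM1A, the largest fall was that of RCOR2. Of all genes tested, 24.9% were higher and 27.5% lower. All genes of this list stood at 8.35 CPM or more in shSCR. Of all genes of at least 5 CPM in shSCR, 24.1% were higher and 37.5% lower. Of 9 tested recruiters of LSD1, 3 were higher and 2 lower. GFI1 went from 37.8 CPM to 65.8 and 41.9, ZNF217 from 167.1 to 230.8 and 246.8, and CTBP1 from 72.7 to 92.0 and 80.6. GFI1B fell from 1.43 CPM to 0.491 and 0.872 (-1.15 ± 0.22), and BCL6 was the other lower one (-0.15). CTBP2 did not pass on the mean, but stood at 2.21 CPM in shSCR, 5.22 with sh68 and 1.05 with sh72. It was named after its values were seen.

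Several of the 23 genes are known from other cell types, so markers of those were read too. Of 10 T-cell markers, 8 were below 1 CPM in every arm, and the summed level was 123.2 to 135.3 CPM in shSCR, 143.2 to 151.8 with sh68 and 86.7 to 90.7 with sh72, nearly all of it LCK. Of 6 tested, CD3D was higher (0.0534 CPM to 0.192 and 0.313, adjusted p = 0.0103, lost without shSCR replicate 3 at 0.0535 or sh68 replicate 3 at 0.0514) and CD5 and LCK lower on the mean, LCK with 127.7 CPM in shSCR, 145.8 with sh68 and 86.2 with sh72. Among NK-cell markers, KLRD1 went from 0.224 CPM to 0.961 and 1.25 and the perforin gene PRF1 from 3.90 to 10.6 and 5.35, while NCAM1 and GNLY stayed at or below 0.0218 CPM, and the sum was 4.14 to 4.51, 11.1 to 12.4 and 6.77 to 6.97 CPM. Both were tested and higher. Of monocyte markers, 2 were tested: LYZ was listed at 0 in each shSCR library, 0.793 CPM with sh68 and 0.0423 with sh72, and was tested through its sh68 libraries, and CD68 was lower (-0.43). Their sum was 4.20 to 4.42 CPM in shSCR, 3.99 to 4.81 with sh68 and 3.15 to 3.42 with sh72, with CD14 at 0.212 CPM or less.

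Of fibroblast markers COL1A1 was the 1 tested and rose from 0.354 CPM to 1.27 and 1.83, while COL1A2, PDGFRA, THY1 and LUM were listed at 0 in shSCR, and the sum was 0.426 to 0.576, 1.55 to 1.84 and 1.34 to 3.68 CPM. Of erythroid and megakaryocyte markers ITGA2B was the 1 tested and rose from 0.106 CPM to 1.08 and 0.325, with HBB at 0.0673 CPM or less, and a sum of 0.347 to 0.407, 0.851 to 1.68 and 0.491 to 0.581 CPM. The endothelial marker PECAM1 was lower (-0.73), with CDH5, VWF and TEK at 0.0512 CPM or less and a sum of 7.56 to 8.44, 3.94 to 4.62 and 4.89 to 5.89 CPM. The epithelial marker EPCAM went from 16.4 CPM to 8.17 and 16.0, with CDH1, KRT8, KRT18 and KRT19 at 0.0594 CPM or less and a sum of 15.0 to 17.8, 7.60 to 8.93 and 15.9 to 16.2 CPM. Whether other cell types have a part in the levels of the 23 genes was not tested.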

How the data were processed

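Polyadenylated RNA of 9 OCI-Ly1 libraries was measured. The authors' deposited values are raw counts for each gene symbol and library, not normalized. Per the submitters' processing notes, the authors used CASAVA 1.8.2, STAR 2.5.2 and featureCounts 1.5.2 with hg38; which annotation and strand setting they used is not given in the sources used here. Depth was 29506767 to 35270849 reads.

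From the counts, CPM were computed by column total and the 23 genes were taken by the stated limits. The members and gene lists were chosen with earlier results of these data known, and the family lists (Eph receptors, ephrins, metalloproteinases, potassium channels, interleukin 18, RNF125 kin, phosphatidylcholine, galactosyltransferases, mannose receptors, PERP partners, CARD proteins, alpha-2-macroglobulins) were written once the members were known. Counts were fitted with edgeR 4.0.16 in R 4.3.3: TMM scaling, filterByExpr (15725 genes kept), a term per arm over all 9 libraries, quasi-likelihood tests, and Benjamini-Hochberg adjustment over all genes tested. The contrasts were sh72 minus sh68 for the members, and the averaged LSD1 shRNAs over shSCR for other genes only. The fit was tested on simulated data. SE is the log2 fold change over the root of F.

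Every member was named. Values by library were given for the 12 with the highest mean ratio, the 5 largest passing differences in each direction and the 3 nearest each limit; of each list up to 4 passing genes, and of the neighbours up to 6 in each direction, were taken by size of change. Genes outside this rule were named too, some of them with a remark in the text. Some marker genes are not reported here and were left out of the counts and sums of their lists. Positions and the 250-base windows are RefSeq's (GRCh38.p14, which held all 23 symbols), and exon overlaps GENCODE 29's. Ratio intervals are 95% exact for counts.

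The fit was repeated with DESeq2 1.42.0 and limma-voom (limma 3.58.1), with RLE factors or unscaled library sizes, without the filter or keeping genes of at least 1 CPM in 3 libraries, with a replicate block, with the 6 LSD1 libraries alone and leaving each library out. Other limits were tried in the rule. The subsets and distances of neighbours and the counts of genes low in shSCR were chosen after seeing the data.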

Additional observations from a re-analysis of the deposited data

Results flagged for a closer look

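The difference between the 2 LSD1 shRNAs was tested with edgeR's quasi-likelihood test and Benjamini-Hochberg adjustment over all genes, and 9 of the 23 genes passed. As log2 fold changes of sh72 minus sh68, PERP had 0.82, EPHA3 0.76, KCNK15 0.66, RNF125 0.63 and PCYT1B 0.42. In the other direction, PCDH9 had -1.22, RBMS3-AS3 -1.0, TMEM71 -0.64 and CARD6 -0.46. In each of the 9, all 3 libraries of one shRNA lay above all 3 of the other, which passing a test on these libraries nearly fixes. The libraries of TEX41, which did not pass, were apart as well. The share of all genes with such a separation was not counted. Of all genes tested, 27.2% were called higher and 29.0% lower for sh72 minus sh68.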

How the results depend on the processing

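The number of genes that met the rule was 23. It was 15 when every library had to meet the 1 CPM limits, 50 at 2 times the control, 5 at 5 times and 3 with an offset of 0.5 CPM, and 19 to 23 with each library left out, of which 18 to 22 were among the 23. In all, 13 of the 23, EPHA3, PERP, KCNK15 and MMP7 among them, missed the limits without at least 1 library. Scaling CPM by TMM kept 20 of the 23. For sh72 minus sh68, 5 members higher and 4 lower became 4 to 5 and 4 to 5 with each library left out. Over 23 members and 17 alternatives, 386 of 391 results kept their call, passing or not. Of the others, 3 lost the call (all PCYT1B), 2 gained it (CD109 and ANKRD30B) and 0 reversed. A difference that did not pass could still change sign: MYBPC1 was 0.008 in the main fit and -0.005 with limma-voom. For 72 other genes, those taken from the lists and neighbours by size of change, 1089 of 1140 results kept their call. The call was lost in 51 and reversed in 0. Genes named outside that choice are not in these counts. The count of lower neighbours was 8, became 5 with library size alone, and was 5 to 8 with each library left out; the cause was not tested. Of neighbours under 5 CPM in shSCR 7 were higher, and 25 and 27 genes were lower at 100 to 500 and 500 to 1000 kb, sets of other sizes. Over all genes, library size alone gave 4475 higher and 3689 lower, beside 3908 and 4318. Libraries with the same replicate number deviated together little (Pearson r -0.0358 to 0.0724 across genes); with the replicate block 5 members were higher and 4 lower, and 33 and 8 neighbours. Depth limits the members: EPHA3 had 3 control reads in all, and its ratio is known only within 10.5 to 155.2 with sh68. A ratio over so few reads depends on the offset.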
